A study of Mus musculus with 5 samples.

Results

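The genes described here are 42 regulators of pre-mRNA splicing, among the 17058 genes listed in any of 5 RNA-Seq libraries from bone marrow-derived macrophages (BMDMs). They were listed by symbol, with earlier results of these data known, and comprise 12 SR and SR-like proteins, 6 kinases that phosphorylate SR proteins, 14 hnRNPs, 6 factors that recognize splice sites, and 4 SR-related proteins of nuclear speckles. All 42 were matched to an Entrez gene, all 42 passed the filter on low counts, and together they had 97 listed transcripts. The BMDMs were grown from the marrow of female Balb/c mice without an engineered allele and spent 48 hours facing 4T1 cells, a mouse mammary carcinoma line, across a porous membrane. In 2 libraries the cancer cells were WT, and in 3 they were an ADAM17 knock-out line, called Adam17-/- here. The knock-out was made in the cancer cells, so the sequenced macrophages carry Adam17 and the deletion cannot be checked in these libraries. The labels give all 3 Adam17-/- libraries the same knock-out designation, so the absence of the protease and any further trait of this 1 line cannot be told apart. ADAM17 is a membrane protease that sheds EGFR ligands and other proteins from the cell surface, and the study asked what its absence in cancer cells does to the macrophages beside them.

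SR proteins bind exons through RNA recognition motifs and recruit the spliceosome through a domain rich in arginine and serine (RS domain). Kinases of the CLK family, in the nucleus, and of the SRPK family, mostly in the cytoplasm, phosphorylate that domain and so set where SR proteins sit and what they bind, whereas hnRNPs often act against exon inclusion. Many of these genes control their own output by making transcripts that hold a premature stop or stay in the nucleus, which is why coding transcripts (RefSeq NM_) and noncoding transcripts (NR_) were kept apart below.

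The libraries held 14658694 to 20788373 counts, and the smallest was Adam17-/- replicate 2. The WT libraries differed more from each other than the Adam17-/- libraries did, with a chi-square of 25.7 per degree of freedom over all genes against 5.22 to 6.32. Levels are CPM, that is counts scaled to a common library total, after TMM normalization, and every difference is a log2 fold change of Adam17-/- over WT. A gene passed where its Benjamini-Hochberg adjusted p from edgeR's quasi-likelihood test, over all 12576 genes tested, was 0.05 or less. The labels do not say that the repeats were separate animals or cultures, so p-values measure only the spread between these libraries. An exact permutation test of 2 against 3 libraries cannot give a p under 0.1.

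Of the 42 genes, 16 were higher and 3 lower in BMDMs cocultured with Adam17-/- 4T1 cells. That is 45.2% of the genes, where 31.7% of all genes tested passed. Split by direction, 38.1% of the 42 passed as higher against 14.9% of all genes, and 7.14% passed as lower against 16.8%. The genes that rose most were the kinases Clk1 and Clk4, the U1-associated factors Luc7l2 and Luc7l3, and the SR-like protein Tra2a, whose means were 1.85 to 2.08 times those in WT cocultures. Only Clk1 passed with a log2 fold change of 1 or more in size, where 4.22% of all genes did. The median log2 fold change was 0.15 over the 42 genes and 0.0092 over all genes tested. The split depends on the scaling: with library size alone, without TMM factors, 22 genes were higher and 0 lower, where 24.01% of all genes were higher and 8.56% lower and the median of all genes stood at 0.16. In a second measure, the libraries of the 2 groups did not overlap for 20 genes that were higher and 7 that were lower. Over all genes 58.0% did not overlap, 28.3% as higher and 29.7% as lower.

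**Figure D1:**
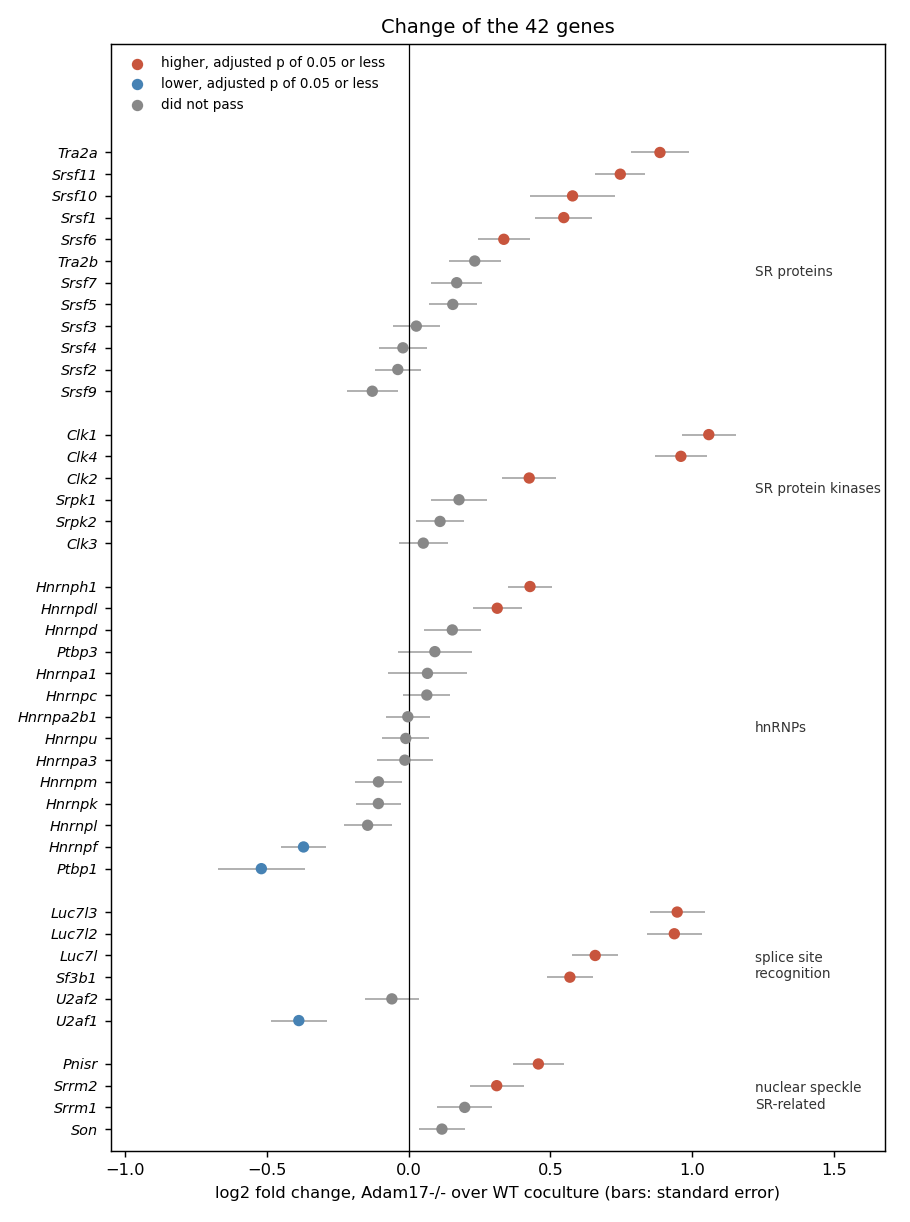
The log2 fold change (x axis, Adam17-/- over WT coculture, with its standard error) of each of the 42 genes, ordered within 5 role groups. Red points passed as higher, blue as lower, and grey did not pass; Clk1 lies farthest right at 1.06 and Ptbp1 farthest left at -0.52.

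The CLK kinases phosphorylate SR proteins in the nucleus, and 3 of the 4 passed, all higher, where 14.9% of all genes passed as higher. Clk1 (Entrez 12747, minus strand, GRCm38 chr1:58411988-58424088) stood at 258 and 287 CPM in the WT libraries and at 611, 564, and 529 CPM in the Adam17-/- libraries. Every Adam17-/- library was above both WT libraries, and the log2 fold change was 1.06 (SE 0.0957, adjusted p = 0.0003). Clk4 (Entrez 12750, plus strand, chr11:51263114-51281770) stood at 66.1 and 77.4 CPM in WT and at 143, 140, and 136 CPM in Adam17-/- cocultures, a log2 fold change of 0.96 (SE 0.0929, adjusted p = 0.0004). The groups were again apart, and the 3 Adam17-/- libraries lay close together. Clk2 rose less, from 85.7 and 71.5 CPM to 107, 106, and 104 CPM (0.43, SE 0.0953, adjusted p = 0.0095). Clk3 overlapped between the groups with a log2 change of 0.052 (adjusted p = 0.676). The SRPK kinases, which phosphorylate SR proteins before their import into the nucleus, did not pass and overlapped between the groups. Srpk1 changed by 0.18 (adjusted p = 0.195) and Srpk2 by 0.11 (adjusted p = 0.346) on the log2 scale.

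Clk1 and Clk4 are close paralogs whose transcripts are known to skip exon 4 or to keep the introns around it, and the exon is shown because 2 of the Clk1 transcripts counted here differ from the coding one at that place. In the GENCODE annotation of GRCm38, exon 4 is 91 bases long in both genes, so leaving it out shifts the reading frame. The Clk1 exon lies at chr1:58420121-58420211 on the minus strand and the Clk4 exon at chr11:51273078-51273168 on the plus strand. They are identical at 85 of 91 bases (93.4%), which are in capitals.
Clk1 exon 4: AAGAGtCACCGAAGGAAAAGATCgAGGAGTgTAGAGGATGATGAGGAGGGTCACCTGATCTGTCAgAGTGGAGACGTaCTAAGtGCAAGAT
Clk4 exon 4: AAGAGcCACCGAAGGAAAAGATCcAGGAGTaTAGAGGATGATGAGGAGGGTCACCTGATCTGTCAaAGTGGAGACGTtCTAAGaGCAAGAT
The noncoding Clk1 transcript NR_027853 is 91 bases shorter than the coding NM_001042634, the length of this exon. With exon 4 left out, the frame from exon 3 meets a stop codon (in capitals) in the opening 21 bases of exon 5, at chr1:58419713-58419733 on the minus strand.
Clk1 exon 5, opening bases: atgaaattgttgatacttTAG
The noncoding transcript NR_027854 is 1258 bases longer than the coding one, which equals the summed length of the introns before (871 bases) and after (387 bases) exon 4. The Clk4 transcript NM_001304744 is 252 bases shorter than NM_007714, as leaving out exons 2 (161 bases) and 4 (91 bases) would give.

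All 3 Clk1 transcripts were higher in every Adam17-/- library than in either WT library. The coding transcript stood at 69.4 and 72.1 CPM in WT and at 111, 118, and 118 CPM in Adam17-/- cocultures, and rose by 0.73 in log2 (SE 0.0810, adjusted p = 0.00158). The noncoding transcripts together stood at 189 and 215 CPM in WT and at 500.0, 445, and 410.3 CPM in Adam17-/- cocultures, and rose by 1.18 (SE 0.112, adjusted p = 0.00115). In neither class did the groups overlap. Over all 42 genes, 16 coding sums were higher and 3 lower, and of the 7 genes with noncoding transcripts 3 noncoding sums were higher (Clk1, Luc7l, and Hnrnpa2b1) and 0 lower. The background was 28.5% for coding sums (13.1% higher and 15.4% lower) and 22.4% for noncoding sums (19.4% higher and 2.96% lower). The exon-skipping transcript NR_027853 took 21.8% and 25.8% of the gene's counts in WT and 33.5%, 32.0%, and 26.6% in Adam17-/- cocultures. The intron-retaining NR_027854 took 51.4% and 49.1% in WT and 48.3%, 47.0%, and 51.0% in Adam17-/- cocultures. Only the exon-skipping transcript thus held a share that was higher in every Adam17-/- library, and its change did not pass (adjusted p = 0.136, limma diffSplice). Clk4 had a like pattern: NM_001304744 took 12.3% and 14.6% of the counts in WT and 28.7%, 32.0%, and 16.3% in Adam17-/- cocultures. The groups did not overlap, and the change in share did not pass (adjusted p = 0.217). Shares of this kind rest on how the authors' quantification divided reads between transcripts of nearly the same sequence, which no interval here covers. The gene sums of Clk1 and Clk4 were whole in every library within 0.05, so that no division of reads between these genes shows in the counts.

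**Figure D2:**
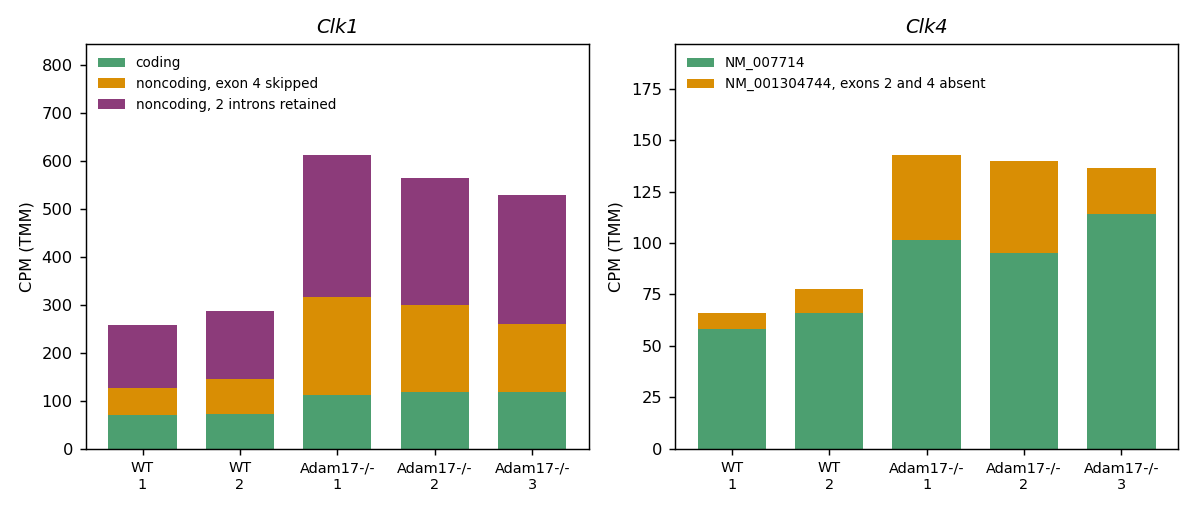
Stacked levels (CPM after TMM, y axis) of the RefSeq transcripts of Clk1 and Clk4 in the 2 WT and 3 Adam17-/- libraries. All layers are taller in the Adam17-/- libraries, and Clk1 is mostly noncoding in every library, from 73.1% to 81.8% of its counts.

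Among the 12 SR and SR-like proteins, 5 were higher, 0 lower, and 7 did not pass, with a median log2 fold change of 0.20. For all genes the shares were 14.9% higher and 16.8% lower, with a median of 0.0092. Tra2a, a sequence-specific activator of exon inclusion, stood at 57.6 and 60.8 CPM in WT and at 113, 118, and 97.7 CPM in Adam17-/- cocultures. It rose by 0.89 (SE 0.101, adjusted p = 0.0006) with no overlap between the groups. Its paralog Tra2b stood at 62.6 and 70.9 CPM in WT and at 79.8, 81.1, and 74.4 CPM in Adam17-/- cocultures, and its change of 0.23 did not pass (adjusted p = 0.0781). Srsf11, an RS-domain protein linked to U1 and U2AF, rose by 0.75 (SE 0.0879, adjusted p = 0.0006), from 219 and 244 CPM to 399, 398, and 368 CPM. Srsf10, an SR protein that represses splicing when dephosphorylated, stood at 70.1 and 105 CPM in WT and at 139, 131, and 123 CPM in Adam17-/- cocultures. Its WT libraries were far apart, and its change of 0.58 (SE 0.150, adjusted p = 0.0179) passed, but not without Adam17-/- replicate 1 (0.55, adjusted p = 0.0739) or 2 (0.59, adjusted p = 0.0597). It was 0.31 without WT replicate 1 and 0.90 without WT replicate 2, and passed in both fits. Srsf6 rose by 0.34 (SE 0.0924, adjusted p = 0.0224) and did not pass without Adam17-/- replicate 1 or 2.

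Srsf1, a founding member of the SR family, stood at 104 and 126 CPM in WT and at 174, 173, and 158 CPM in Adam17-/- cocultures, a log2 fold change of 0.55 (SE 0.101, adjusted p = 0.0041). Its 2 RefSeq transcripts moved apart. NM_001078167 took 58.8% and 62.0% of the gene's counts in WT and 77.1%, 73.3%, and 80.2% in Adam17-/- cocultures, and this shift passed (adjusted p = 0.0271, limma diffSplice). In levels, NM_001078167 went from 61.3 and 78.0 CPM to 134, 127, and 126 CPM, while NM_173374 stood at 43.0 and 47.7 CPM in WT and at 39.8, 46.1, and 31.3 CPM in Adam17-/- cocultures. Only the former was separate between the groups. The transcripts differ by a stretch of 196 bases at chr11:88049216-88049411 on the plus strand, which NM_173374 splices out and NM_001078167 keeps. The opening of that stretch is shown because it ends the reading frame: the coding sequence of NM_001078167 runs through it for 54 bases, to chr11:88049269, and stops at the codon in capitals.
Srsf1 kept stretch, opening bases: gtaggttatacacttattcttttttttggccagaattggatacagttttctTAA
The kept transcript has 201 codons, and the spliced one has 248 codons and runs on through the RS domain. Without Adam17-/- replicate 1, the adjusted p of the shift was 0.0779, without Adam17-/- replicate 3 it was 0.0506, and without WT replicate 1 it was 0.0739.

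Of the SR genes that did not pass, Srsf2, Srsf3, and Srsf7 are known to make unproductive transcripts through exons with an early stop. Srsf2 stood at 333 and 298 CPM in WT and at 313, 305, and 304 CPM in Adam17-/- cocultures, a log2 change of -0.038 (adjusted p = 0.748) that turned positive with library size alone (0.11). Srsf3 stood at 75.9 and 70.1 CPM in WT and at 72.8, 76.9, and 73.5 CPM in Adam17-/- cocultures (0.027, adjusted p = 0.827). Srsf7 stood at 59.1 and 52.7 CPM in WT and at 63.1, 64.9, and 60.6 CPM in Adam17-/- cocultures (0.17, adjusted p = 0.174). Srsf2 and Srsf3 overlapped between the groups, whereas Srsf7 was higher in every Adam17-/- library and passed with library size alone (0.32, adjusted p = 0.0209). Most counts of Srsf3 and Srsf7 lay on the noncoding transcript that includes the early-stop exon. The Srsf3 exon (456 bases, chr17:29039454-29039909, plus strand) and the Srsf7 exon (460 bases in GENCODE, where the RefSeq transcripts with and without it differ by 451 bases, chr17:80204622-80205081, minus strand) are shown from their opening base to their stop codon, in capitals.
Srsf3, exon of NR_036613: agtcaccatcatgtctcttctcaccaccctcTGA
Srsf7, exon of NR_036615: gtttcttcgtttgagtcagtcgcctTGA
The Srsf3 transcript with the exon took 93.3% and 83.6% of the counts in WT and 91.1%, 88.4%, and 89.5% in Adam17-/- cocultures. For Srsf7 these shares were 79.5% and 82.0% in WT and 79.4%, 78.7%, and 81.2% in Adam17-/- cocultures. Both shares overlapped between the groups. The level of the Srsf7 transcript was higher in every Adam17-/- library, at 50.1, 51.1, and 49.2 CPM against 47.0 and 43.2 CPM in WT, and did not pass (adjusted p = 0.149). The other SR genes that did not pass were Srsf4 at -0.020 (adjusted p = 0.875), Srsf5 at 0.16 (adjusted p = 0.187), and Srsf9 at -0.13 (adjusted p = 0.296). Per transcript length, Srsf5 had the highest mean of the 42 genes in WT cocultures, 308 ± 16.7 FPKM (SD, n = 2), and Srpk2 the lowest, 8.87 FPKM. In Adam17-/- cocultures Srsf5 stood at 379 ± 7.89 FPKM (SD, n = 3), below Srrm2 at 395 ± 9.25 FPKM (SD, n = 3).

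**Figure D3:**
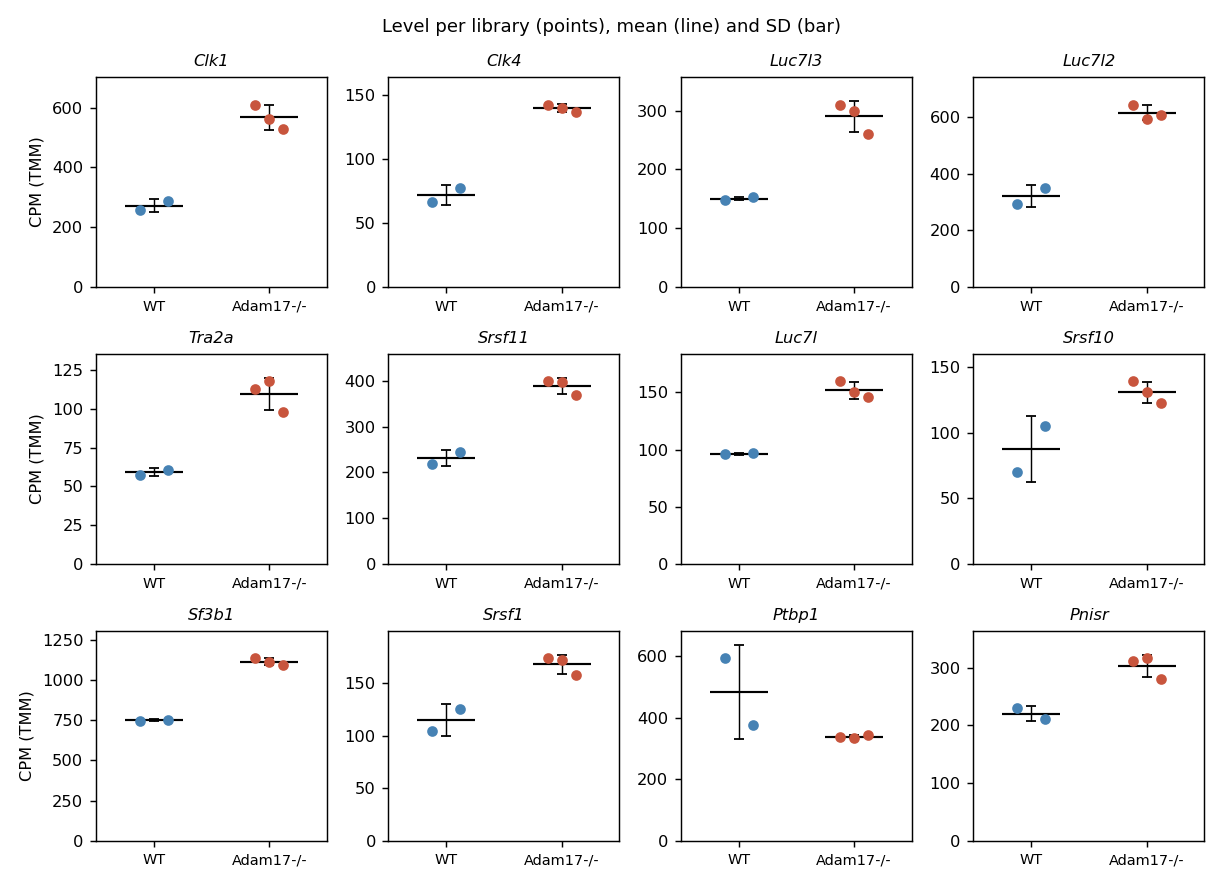
CPM (y axis, starting at 0) in each library for the 12 genes that passed with the largest change in size; points are libraries, lines are means, and bars are the SD of 2 WT or 3 Adam17-/- libraries. The groups are apart in all 12, Ptbp1 is the only one that is lower, and its WT libraries stand at 594 and 377 CPM.

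The factors that mark splice sites had the largest median of the 5 groups, 0.61. Of these 6 genes, 4 were higher and 1 lower, where 14.9% of all genes were higher and 16.8% lower. The Luc7-like proteins, which associate with the U1 snRNP at the 5′ splice site, rose in all 3 paralogs. Luc7l3 stood at 148 and 153 CPM in WT and at 311, 300.2, and 260.2 CPM in Adam17-/- cocultures (0.95, SE 0.0963, adjusted p = 0.0004). Luc7l2 stood at 294 and 348 CPM in WT and at 643, 593, and 606 CPM in Adam17-/- cocultures (0.94, SE 0.0975, adjusted p = 0.0004). Luc7l stood at 95.8 and 96.6 CPM in WT and at 160, 150.1, and 146 CPM in Adam17-/- cocultures (0.66, SE 0.0821, adjusted p = 0.0008). None of the 3 overlapped between the groups, and for Luc7l the coding (0.84) and noncoding (0.56) transcripts both passed (adjusted p = 0.00239 and 0.00326). Sf3b1, the U2 snRNP subunit that holds the branch point, went from 747 and 754 CPM to 1134, 1112, and 1091 CPM (0.57, SE 0.0804, adjusted p = 0.0013). U2af1, the small U2AF subunit that reads the AG of the 3′ splice site, was lower, at 32.1 and 31.8 CPM in WT and 22.4, 25.9, and 25.05 CPM in Adam17-/- cocultures (-0.39, SE 0.0991, adjusted p = 0.0167). It did not pass with library size alone, on the FPKM scale, with the replicate number as a block, or without Adam17-/- replicate 1 or 3. Its partner U2af2 changed by -0.059 (adjusted p = 0.661). Counts of Luc7l2 were not whole in 4 libraries, and whether reads were divided with other genes was not tested.

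Of the 14 hnRNPs, 2 were higher and 2 lower (14.3% each way, near the 14.9% and 16.8% of all genes), and 10 did not pass. Their median was -0.0065 and turned to 0.14 with library size alone. Hnrnph1, which binds runs of G, stood at 232 and 235 CPM in WT and at 325, 316, and 301 CPM in Adam17-/- cocultures (0.43, SE 0.0789, adjusted p = 0.0041). Its relative Hnrnpf, which binds similar runs, moved the other way, from 340.5 and 372 CPM to 277, 269, and 281 CPM (-0.37, SE 0.0797, adjusted p = 0.0081). Both genes had groups that did not overlap. The fall of Hnrnpf did not pass with library size alone (-0.23, adjusted p = 0.0660), on either FPKM scale, or without Adam17-/- replicate 1 (adjusted p = 0.0584) or 2 (adjusted p = 0.0554), and Hnrnph1 passed under all 14 alternatives of the gene-level fit. Hnrnpdl, a relative of the AU-rich element binder Hnrnpd, rose from 130 and 144 CPM to 177, 171, and 161 CPM (0.31, SE 0.0869, adjusted p = 0.0234) and did not pass without Adam17-/- replicate 1 (adjusted p = 0.101) or 2 (adjusted p = 0.0759).

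Ptbp1, a repressor that binds pyrimidine tracts, stood at 594 and 377 CPM in WT and at 338, 333, and 344 CPM in Adam17-/- cocultures. Its fall of 0.52 in log2 (SE 0.154, adjusted p = 0.0299) rested on WT replicate 1, without which the change was -0.16 (adjusted p = 0.113), and it was -0.81 without WT replicate 2. The fall also did not pass with library size alone, on either FPKM scale, or without any 1 of the Adam17-/- libraries. Counts of Ptbp1 were not whole in all 5 libraries. The paralog Ptbp3 stood at 330 and 467 CPM in WT and at 441, 409, and 423 CPM in Adam17-/- cocultures (0.092, adjusted p = 0.617). Ptbp1 was thus higher and Ptbp3 lower in WT replicate 1 than in WT replicate 2. The other hnRNPs that did not pass lay between -0.14 (Hnrnpl) and 0.15 (Hnrnpd).

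Hnrnpa2b1 was level as a gene, at 222 and 237 CPM in WT and 228, 230, and 230.4 CPM in Adam17-/- cocultures (adjusted p = 0.980). Its noncoding transcript NR_104468 took 27.9% and 27.7% of the counts in WT and 37.2%, 32.8%, and 34.3% in Adam17-/- cocultures, and its level rose by 0.34 (SE 0.0883, adjusted p = 0.0256) in the test of class sums but did not pass when each transcript was tested on its own (adjusted p = 0.0763). The coding transcripts changed by -0.13 (adjusted p = 0.250). As a share within the gene the shift did not pass per transcript (adjusted p = 0.0525), and it did pass when the transcripts of the gene were tested together by the Simes method (adjusted p = 0.0387). The unadjusted Simes value of this gene is the same as that of its tested transcripts. The calls thus differ only through adjustment over 3199 genes or over 8292 transcripts, and the Simes call is not separate evidence. With the Simes method 3 of 26 genes passed (Srsf1, Son, and Hnrnpa2b1), which is 11.5%, where 6.00% of all 3199 genes did.

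Over the 7 genes with both transcript classes, the noncoding share was higher in every Adam17-/- library for Clk1 and Hnrnpa2b1, and it overlapped for Srsf3, Srsf7, Srsf9, Hnrnpa1, and Luc7l. The share groups did not overlap in 30.3% of the 343 genes so tested. Clk1 went from 73.1% and 74.9% to 81.8%, 79.0%, and 77.6%, a change of 0.45 in the log2 ratio of noncoding to coding counts (SE 0.207). By limma, 0 of the 7 genes passed and 0 of 343, with adjusted p values of 0.473 for Clk1 and 0.427 for Hnrnpa2b1. At an unadjusted p under 0.05 the counts were 0 of 7 and 41 of 343. Over whole libraries, noncoding transcripts took 2.14% and 2.16% of all counts in WT and 3.02% to 3.25% in Adam17-/- cocultures. That total includes noncoding RNA genes and is not a share within genes. Among them, Malat1 stood at 1945 and 2508 CPM in WT and at 5454, 5019, and 4977 CPM in Adam17-/- cocultures. Neat1 stood at 3950 and 3452 CPM in WT and at 5620, 5342, and 4710 CPM in Adam17-/- cocultures.

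**Figure D4:**
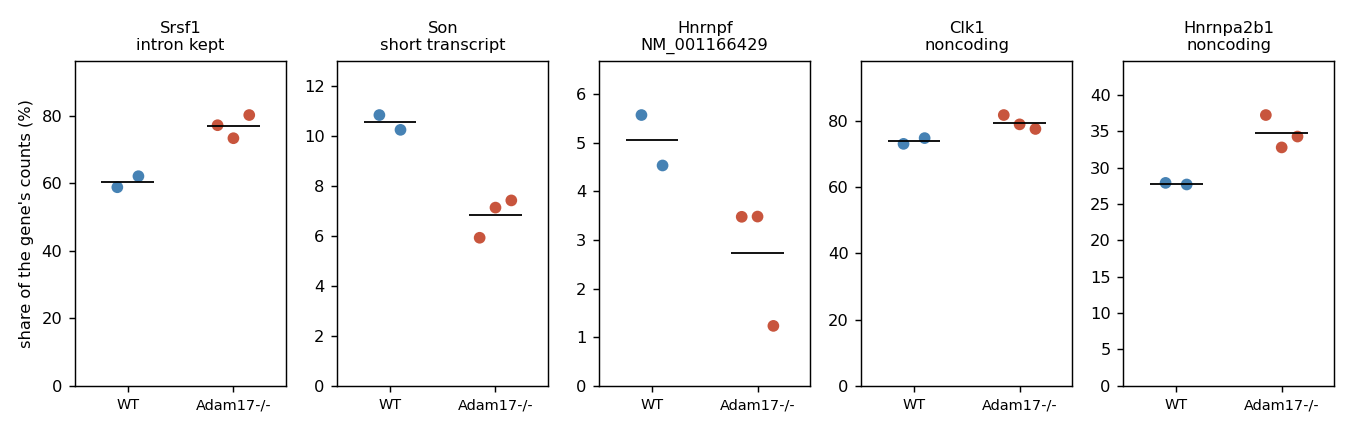
Share of a gene's counts (%, y axis, starting at 0) taken by the named transcript or by all noncoding transcripts, in 2 WT (blue) and 3 Adam17-/- (red) libraries, with lines at the means. The kept-intron transcript of Srsf1 rises from 58.8% and 62.0% to 73.3% or more, the short Son transcript falls, and in all 5 panels the groups are apart.

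The SR-related proteins of nuclear speckles, the bodies where splicing factors gather, had 2 genes higher and 0 lower of 4 (14.9% and 16.8% of all genes). Pnisr stood at 229 and 211 CPM in WT and at 311, 316, and 280.2 CPM in Adam17-/- cocultures (0.46, SE 0.0888, adjusted p = 0.0052). Srrm2, a scaffold of the speckle, was the gene with the most counts, at 2790 and 2447 CPM in WT and 3156, 3242, and 3343 CPM in Adam17-/- cocultures (0.31, SE 0.0952, adjusted p = 0.0335). Both were apart between the groups, but Srrm2 did not pass without WT replicate 2 or without any 1 Adam17-/- library. Srrm1 changed by 0.20 (adjusted p = 0.150). Son, the other large speckle protein, changed by 0.12 as a gene (adjusted p = 0.286), at 740 and 779 CPM in WT and 817, 845, and 809 CPM in Adam17-/- cocultures. Within Son the short transcript NM_019973 took 10.8% and 10.2% of the counts in WT and 5.92%, 7.12%, and 7.41% in Adam17-/- cocultures, and this fall passed (adjusted p = 0.0209). GENCODE gives the short transcript 5 exons, with its own last exon at chr16:91662492-91664033, and the long NM_178880 12 exons.

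Of the 80 transcripts tested for their share within these genes, 5 passed (6.25%), 2 higher and 3 lower, where 3.29% of all 8292 transcripts did (1.75% higher and 1.54% lower). They were the transcript pairs of Srsf1 and of Son and NM_001166429 of Hnrnpf, which fell from 5.57% and 4.53% to 3.47%, 3.48%, and 1.23% of its gene's counts (adjusted p = 0.0406). The Hnrnpf call was lost without any 1 of the 5 libraries (adjusted p of 0.0537 to 0.203), and its change went from -1.09 to -0.57 without Adam17-/- replicate 3. Since Srsf1 and Son have only 2 tested transcripts each, a rise of 1 is the fall of the other. Without WT replicate 1, and also without Adam17-/- replicate 1, 0 of the 5 passed, while 2.51% and 2.31% of all transcripts did.

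Beyond the 42 genes, the other 108 genes of a splicing list, of which 106 were tested, had 19 higher (17.9%, against 14.9% of all genes) and 27 lower (25.5%, against 16.8%). Their median was -0.056 and turned to 0.09 with library size alone, where 28 were higher and 15 lower, against 24.01% and 8.56% of all genes. Subunits of the spliceosome's core were mostly lower or did not pass. Of 10 U1 and Sm genes 0 were higher and 4 lower (median -0.33), of 15 U2 and 3′ splice site genes 1 was higher and 6 lower (-0.22), and of 11 tri-snRNP genes 0 were higher and 5 lower (-0.28). With library size alone these medians shrank to -0.18, -0.075, and -0.14. The largest fall of the list was in Snrpa of the U1 and Sm group, from 70.1 and 52.4 CPM to 34.3, 31.1, and 38.2 CPM (-0.82, adjusted p = 0.00226). In the U2 group Sf3b4, a partner of Sf3b1 in the SF3b complex, fell from 67.4 and 53.0 CPM to 37.5, 36.2, and 38.9 CPM (-0.68, adjusted p = 0.00232), against the rise of Sf3b1. Other SR-related and RBM proteins had 6 higher, 0 lower, and 8 that did not pass of 14 (median 0.20): Rbm39 rose by 0.79 (adjusted p = 0.000663) and Rbm25 by 0.75 (adjusted p = 0.000839). The largest rise of the list was in Prpf39, a U1-associated factor, from 85.4 and 116 CPM to 229, 218, and 202 CPM (1.11, adjusted p = 0.000588). Ptbp2, the paralog that Ptbp1 is known to repress through exon skipping, rose from 36.3 and 42.5 CPM to 74.98, 66.9, and 66.0 CPM (0.81, adjusted p = 0.000896). A link between this rise and the level of Ptbp1 was not tested.

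**Figure D5:**
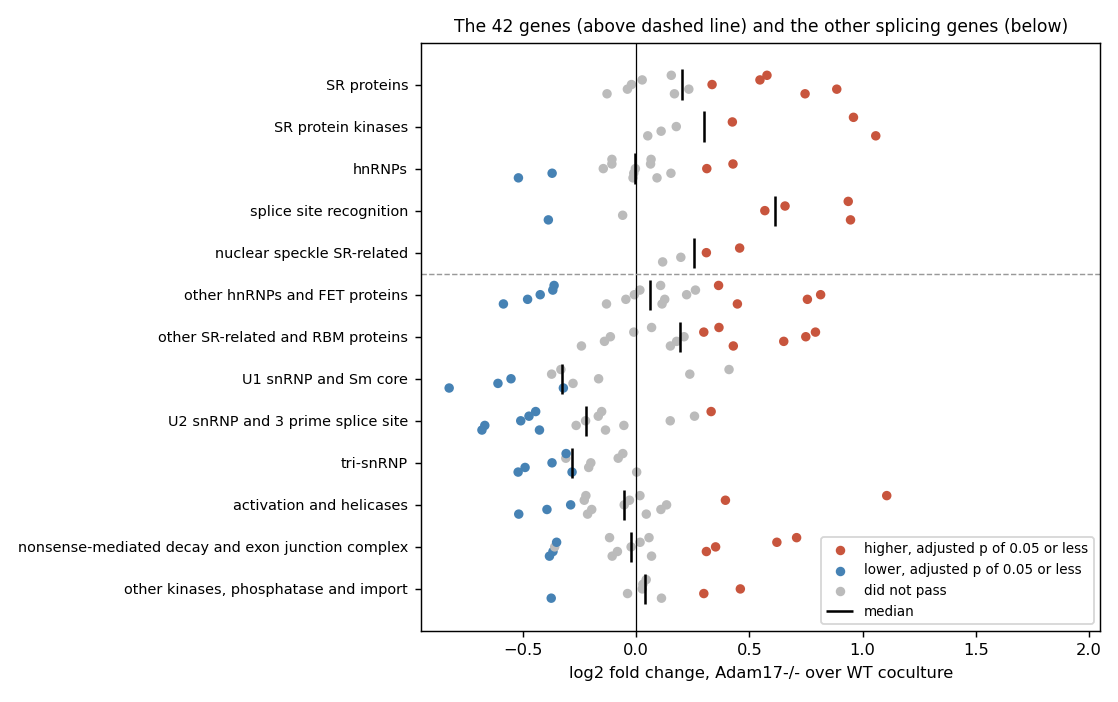
Log2 fold change (x axis, Adam17-/- over WT coculture) of every tested gene in the 5 role groups of the 42 genes, above the dashed line, and in 8 groups of other splicing genes, below it; black ticks are group medians. The splice site recognition group has the median farthest right, 0.61, and the U1 and Sm group the one farthest left, -0.33.

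Other measures moved with these genes. Base composition was among them. The correlation between a gene's GC content and its log2 fold change was -0.29 (Spearman) over 11806 genes and -0.48 over the 42, as a description across genes, which are not independent and share libraries. The median GC content was 43.8% for the 16 higher genes, 54.4% for the 3 lower, 47.6% for the 23 that did not pass, and 50.8% for all genes. Among the 2952 genes with a GC content of 46.2% or less, 11 of the 22 members were higher and 0 lower, where 23.7% of all these genes were higher and 6.74% lower. Among the next 2951 genes, up to 50.8%, 3 of 9 members were higher, against 15.7%, and 1 lower, against 15.5%. Among the next 2951 genes, up to 55.3%, 1 of 7 was higher, against 11.1%, and 2 were lower, against 22.6%. Above that, 1 of 4 was higher, against 7.59%, and 0 lower, against 25.7%. The part of base composition in the changes was not tested.

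RNAs held in the nucleus were also higher. Malat1, Neat1, and Kcnq1ot1, 3 of 4 listed, all passed, the 4 together summed to 6002 to 6098 CPM in WT and 9908 to 11310 CPM in Adam17-/- cocultures, and Meg3 was at or near 0. Macrophage markers were present throughout and lower in Adam17-/- cocultures, where 5 of 7 passed as lower and the sum went from 27113 to 27761 CPM down to 17584 to 19465 CPM. Neutrophil granule genes had 7 of 9 higher (322 to 392 CPM against 1125 to 1305 CPM) and megakaryocyte genes 5 of 5 higher (48.6 to 54.0 CPM against 79.7 to 133 CPM). Dendritic cell genes had 1 of 3 higher, with 2 tested (3.19 to 5.49 CPM against 8.35 to 12.1 CPM). That gene was Ccr7, at 4.34 and 2.06 CPM in WT and 9.30, 6.97, and 7.73 CPM in Adam17-/- cocultures, most of the sum in every library. Of all genes tested, 14.9% passed as higher and 16.8% as lower. Epithelial genes, which would mark 4T1 cells, summed to 10.99 to 12.4 CPM in WT and 11.8 to 13.8 CPM in Adam17-/- cocultures, with Epcam, Krt8, and Krt19 at or near 0 and nearly all of the sum on Cdh1, the only 1 of 5 tested, which did not pass. Lymphocyte genes summed to at most 1.71 CPM, and the 1 of 4 tested did not pass. Proliferation genes had 3 higher and 5 lower of 12 and summed to 319 to 326 CPM and 301 to 334 CPM. In these bulk samples, fewer cells of a type and less RNA per cell cannot be told apart, and the part of any of these lists in the changes above was not tested.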

How the data were processed

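RNA-Seq was performed on 5 libraries of poly(A)-selected RNA from BMDMs, 2 from WT and 3 from Adam17-/- cocultures, grouped as labelled. Sequencing by the authors used a BGISEQ-500, and their methods and processing notes name HISAT, Bowtie2, RSEM, and the build mm10 (GRCm38); versions are not given in the sources used here. Per library, the authors deposited an expected count (not normalized) and an FPKM value per RefSeq transcript. The lists hold no transcript whose FPKM is under 0.01, and such transcripts entered as 0 counts. Between 48.3% and 49.3% of transcript counts were not whole, and the library kit does not mark strand.

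Expected counts were summed per gene, or per gene and class (NM_ or NR_), rounded, and tested without covariates with edgeR 4.0.16 in R 4.3.3 (TMM, filterByExpr, glmQLFit, glmQLFTest). Noncoding to coding ratios (pseudocount 0.5, a mean of at least 10 counts in each class) and transcript shares (voom, diffSplice) were tested with limma 3.58.1. Of the gene sums, 7 of the 42 were further than 0.05 from a whole number in some library. Every p was adjusted by Benjamini-Hochberg over all features of its table. The scripts were tested on simulated data. Sequences, exons, and GC content came from GENCODE vM21 and gene identities from RefSeq, both GRCm38, a C57BL/6J reference, and RefSeq transcripts were tied to GENCODE structures by exon content and length, and for the Srsf7 exon these lengths differ.

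The members and gene lists were chosen with earlier results of these data known. Genes given in full were the 12 that passed with the largest change, Srsf2, Srsf3, Srsf7, Hnrnpdl, Hnrnph1, and those with a shifted transcript share. Alternatives were DESeq2 1.42.0, other scalings, limma on log2(FPKM + 0.1) and log2(FPKM + 1), other filters and thresholds, a replicate block, and leaving out each library. Other tools were Python 3.11.15, pandas 2.3.3, and matplotlib 3.10.9.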

Additional observations from a re-analysis of the deposited data

How the results depend on the processing

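Of the 16 genes that passed as higher, 12 passed under all 14 alternatives of the gene-sum fit (the exceptions were Srsf6, Srsf10, Hnrnpdl, and Srrm2), and of the 3 lower ones 0 did. DESeq2 gave 16 higher and 3 lower (12.6% and 14.9% of all genes). Library size alone and both FPKM scales gave 22 higher and 0 lower (22.8% to 24.01% and 8.04% to 8.56% of all genes). Leaving out each library in turn gave 12 to 23 passing members and 28 to 64 passing genes of the splicing list (16.1% to 41.9% of all genes), 13 to 26 passing class sums (12.2% to 38.5% of all), and 0 to 6 passing transcript shares (2.31% to 5.60% of all), with the lowest counts without Adam17-/- replicate 1. Leaving out a WT library leaves a lone one that is assumed to vary like the other group. A log2 fold change of 1 or more in size left 1 member and 1 list gene (4.22% of all genes), and an adjusted p of 0.01 or less left 13 members and 29 list genes (14.6% of all genes). Testing only transcripts with at least 10 counts in every sample gave 8 passing shares (7.74% of all transcripts passed), and the Simes method 3 genes (6.00% of all). Among the 19 genes followed singly under every setting, the sign turned for Srsf2, to 0.019 with upper quartile factors, 0.11 with library size alone, and 0.11 on both FPKM scales, with a range of -0.12 to 0.038 over the left-out libraries (above 0 without WT replicate 1), and for Srsf3, with a range of -0.033 to 0.082 (below 0 without WT replicate 2). Neither gene passed there. The cause of these shifts was not tested.

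The labels do not say whether the replicate numbers pair the samples. The deviations of same-numbered libraries from their group means correlated at -0.124 and -0.0504. With 2 WT libraries these deviations mirror each other, so the values cannot decide whether a number marks a shared animal or batch. With the replicate number as a block, 14 members and 25 list genes (18.6% of all genes), 14 class sums (13.8% of all), 0 noncoding shares (0 of 343), and 0 transcript shares (0.724% of all) passed. Members that passed in the main fit and not with the block were Srsf6, Hnrnpdl, Hnrnpf, U2af1, and Srrm2. Adam17-/- replicate 3 has no WT partner in the fit with the block.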
